A study of Mus musculus and Homo sapiens with 12 samples.

Results

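MT elements are repeats of the mouse genome that belong to the MaLR branch of the endogenous retrovirus-like elements, and they were taken here as the rows of the deposited mouse repeat table (build mm10) with the family name ERVL-MaLR and a subfamily name starting with MTA, MTB, MTC, MTD or MTE. The rule gave 148946 elements in 19 subfamilies out of 3158171 repeat elements, and 10092 of them carried counts, out of 318953 elements with counts. The measurement was meRIP–seq of chromatin-associated RNA (caRNA), in which RNA of the chromatin fraction of nuclei was fragmented, precipitated with an antibody against 5-methylcytosine (m5C) and sequenced. Mouse embryonic stem cells (mES cells) were compared as wild type (WT, 3 libraries) and as a knockout of Tet2 (Tet2 KO, 3 libraries). Tet2 encodes an enzyme that oxidises methylated cytosine. Both lines grew in medium with serum, LIF and the inhibitors CHIR99021 and PD0325901, and came from another laboratory. The number of clones behind each line, and whether libraries of a group came from separate cultures, are not given in the sources used here, so p values cover only the spread between these libraries. Because the table lists only repeats, neither the loss of Tet2 nor stem cell markers could be checked in it. It holds immunoprecipitated libraries without input or spike-in columns, so RNA abundance and m5C enrichment cannot be told apart in any difference given below, and each difference is relative to the other repeats.

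MT elements have the layout of a retrovirus reduced to its control parts. A long terminal repeat (LTR), which holds a promoter and a polyadenylation signal, stands at either end of an internal stretch (named -int) that has lost the viral genes, and most copies are solitary LTRs left by recombination. MTA is the youngest group and MTE the oldest. MT LTRs are known as promoters and first exons of many transcripts of the mouse oocyte and early embryo, including an oocyte form of Dicer1, and are largely silent in most other cells.

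Sequences of the elements behind the main values, read from the mouse reference assembly GRCm38.p6, the build of the table, are printed first, each 5′ to 3′ on the strand of the repeat. The MTE2b element at chr14:45812580-45812927 (minus strand, 348 bases) had the 3rd highest count of all elements in the table. The 213 bases from its 5′ end (chr14:45812715-45812927) are shown for the run of 44 G in capitals, at bases 70 to 113 of the element.

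MTE2b element, chromosome 14: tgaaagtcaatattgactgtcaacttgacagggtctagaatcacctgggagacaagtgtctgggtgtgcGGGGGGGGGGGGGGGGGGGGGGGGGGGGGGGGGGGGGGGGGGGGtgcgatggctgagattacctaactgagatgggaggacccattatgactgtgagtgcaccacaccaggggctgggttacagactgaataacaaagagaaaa

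The last 110 bases of 5 MTA_Mm copies are shown to compare their LTR ends, with the polyadenylation hexamer AATAAA in capitals. They are the ends of a 2150-base copy at chr2:175089992-175092141 (plus strand, bases chr2:175092032-175092141), a 1892-base copy at chr11:77255146-77257037 (plus strand, chr11:77256928-77257037), a 1871-base copy at chr11:31343758-31345628 (minus strand, chr11:31343758-31343867), a 1882-base copy at chr4:147371066-147372947 (plus strand, chr4:147372838-147372947) and a 1618-base copy at chr2:177014009-177015626 (plus strand, chr2:177015517-177015626).
MTA_Mm, chromosome 2, 2150 bases: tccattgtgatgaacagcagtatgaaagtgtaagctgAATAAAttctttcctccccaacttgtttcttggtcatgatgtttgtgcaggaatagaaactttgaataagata
MTA_Mm, chromosome 11, 1892 bases: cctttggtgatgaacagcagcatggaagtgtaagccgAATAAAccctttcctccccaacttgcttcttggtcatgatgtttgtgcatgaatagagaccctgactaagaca
MTA_Mm, chromosome 11, 1871 bases: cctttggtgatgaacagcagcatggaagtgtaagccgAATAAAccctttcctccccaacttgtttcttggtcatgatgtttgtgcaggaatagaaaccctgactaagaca
MTA_Mm, chromosome 4, 1882 bases: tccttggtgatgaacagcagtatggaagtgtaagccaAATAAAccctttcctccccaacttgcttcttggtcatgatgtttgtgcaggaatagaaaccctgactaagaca
MTA_Mm, chromosome 2, 1618 bases: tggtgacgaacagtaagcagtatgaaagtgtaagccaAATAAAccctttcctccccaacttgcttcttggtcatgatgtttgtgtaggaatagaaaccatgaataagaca

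The hexamer ended 67 bases before the end of the element in each of the 5 copies. AATAAA was looked for on the strand of the element in the last 110 bases of the LTR-named copies of at least 300 bases. It was found in 90.4% of MTA, 76.1% of MTB, 46.2% of MTC, 34.4% of MTD and 25.1% of MTE copies, and in 19.9% of the copies of ORR1, the other large rodent MaLR group. On the opposite strand of the same windows it was found in 0.196% of MTA and 8.50% of MTD copies, the lowest and the highest share among the MT groups. A match is a description of letters and says nothing of use.

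Among MT groups, the youngest stood apart in how many copies had counts. Counts fell on 25.1% of the 13339 MTA copies, against 5.63% of the 10539 MTB, 5.06% of the 24942 MTC, 4.81% of the 44166 MTD and 4.95% of the 55960 MTE copies, and 5.11% of ORR1 copies. A high share was not particular to MTA, since 54.9% of the copies of MERVL, a related element described below, had counts. Similar copies may share reads, which was not tested. MTA copies with counts had a median length of 1454 bases against 395 for all MTA copies. Of those with counts, 57.2% were assembled copies, against 20.8% of all MTA copies. Assembled copies are those listed without consensus positions, taken as pieces that the annotation joined into 1 element. The median number of CpG per 100 bases went from 0.254 in MTA to 0.588 in MTE. Of MTA copies with counts, 2.48% overlapped an annotated exon, 36.1% lay in introns and 61.4% were intergenic, close to the 1.92%, 35.2% and 62.9% of all MTA copies. Per length, in WT mES cells, MTA_Mm had 700 and MTA_Mm-int 851 CPM (read counts normalised to the library's total over the DNA, LINE, LTR and SINE classes) per Mb of sequence, while the LTR subfamilies MTB, MTC, MTD and MTEa had 25.5, 31.6, 40.7 and 25.8. MTE2b had 2207 through the chromosome 14 element. The internal subfamilies MTEa-int, MTE-int, MTD-int and MTB-int had 225, 172, 111 and 101, the first of them through WT replicate 3. The other internal subfamilies MTEb-int, MTC-int, MTE2b-int, MTB_Mm-int and MTE2a-int had 57.9, 27.5, 19.8, 17.5 and 5.84.

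As a share of all repeat counts, MT elements did not separate the groups. They took 2.58%, 1.24% and 1.15% of the counts in WT replicates 1, 2 and 3 and 3.08%, 1.09% and 1.19% in Tet2 KO replicates 1, 2 and 3. Replicate 1 was the high library in both groups. The single MTE2b element on chromosome 14 held 30.5% to 65.95% of the MT counts in WT libraries and 50.1% to 84.5% in Tet2 KO libraries. Without it, MT elements took 0.894%, 0.861% and 0.711% in WT (0.822 ± 0.0976, SD, n = 3) and 0.491%, 0.463% and 0.596% in Tet2 KO (0.517 ± 0.0703, SD, n = 3), so that every Tet2 KO library was below every WT library. The ratio of the means was −0.67 on the log2 scale. These shares are sums over chosen members and were given no test.

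MTA made up most of what remained, with 69.5% to 78.4% of the MT counts without that element in WT and 49.6% to 66.2% in Tet2 KO. MTA took 0.674%, 0.673% and 0.492% of all counts in WT (0.613 ± 0.105, SD, n = 3) and 0.237%, 0.293% and 0.392% in Tet2 KO (0.307 ± 0.0787, SD, n = 3), with no overlap and a log2 ratio of −0.995. The other 4 groups overlapped between WT and Tet2 KO. MTB lay between 0.00704% and 0.0133% in WT and between 0.00741% and 0.0255% in Tet2 KO. MTC lay between 0.0208% and 0.0374% in WT and between 0.0248% and 0.0791% in Tet2 KO. MTD lay between 0.0459% and 0.0994% in WT and between 0.0521% and 0.0673% in Tet2 KO. MTE without its dominant element lay between 0.0747% and 0.114% in WT and between 0.08% and 0.0897% in Tet2 KO.

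Among subfamilies, MTA_Mm, the LTR-named part of the youngest group, was lower in Tet2 KO. It had 6368, 6207 and 4812 CPM in WT and 2080, 2612 and 3398 CPM in Tet2 KO, so the groups did not overlap. The fitted log2 change was −1.28 ± 0.193 (SE, 3 against 3 libraries) with an adjusted p of 0.0229, by edgeR's quasi-likelihood test with Benjamini–Hochberg adjustment over the 547 subfamilies with enough counts to test. MTA_Mm was the 1 called of the 16 MT subfamilies tested. Over all tested subfamilies 1.65% were called lower and 0.366% higher. The call was lost on leaving out 1 library in 4 of 6 cases. The log2 change then lay between −1.47 and −1.15, with adjusted p of 0.103 without WT replicate 1, 0.0964 without WT replicate 2, 0.0557 without Tet2 KO replicate 1 and 0.135 without Tet2 KO replicate 2. It was also lost when libraries were scaled by their totals alone, with a log2 change of −1.10 and an adjusted p of 0.0698.

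The companion internal subfamily MTA_Mm-int had 372, 526 and 107 CPM in WT and 291, 315 and 527 CPM in Tet2 KO, with a log2 change of 0.01 ± 0.581 and an adjusted p of 0.998. WT and Tet2 KO libraries were interleaved, and the difference between the changes of MTA_Mm and MTA_Mm-int was not tested. Within a stretch of chromosome 2 described below, the names of the pair do not always mark separate sequences, since some identical assembled copies carry either name. Whole copies elsewhere were not compared.

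In the MTB group, MTB had 75.7, 22.9 and 93.7 CPM in WT and 43.9, 37.1 and 165 CPM in Tet2 KO (log2 change 0.15 ± 0.843, adjusted p = 0.941 by edgeR). MTB_Mm had 28.0, 17.5 and 27.1 CPM in WT and 28.9, 51.1 and 85.5 CPM in Tet2 KO, so every Tet2 KO library was the higher, by a narrow gap, with a log2 change of 0.97 ± 0.628 and an edgeR adjusted p of 0.469. MTB-int, which at a mean of 25.9 counts per library lies under the level of 50 set for describing subfamilies in full, was given because its groups did not overlap. Its CPM were 10.6, 28.0 and 9.73 in WT and 0.889, 2.28 and 3.00 in Tet2 KO, with an edgeR adjusted p of 0.0795. Most of its counts lay on 1 element, at chr14:106895967-106896836. That element had 8.7, 86.7 and 19.5 of the 23.4, 88.9 and 32.3 MTB-int counts in WT, and 0, 0 and 0.2 counts in Tet2 KO. In all, 3 MT subfamilies (MTA_Mm, MTB-int and MTE-int) were lower in every Tet2 KO library and 1 (MTB_Mm) was higher, 18.8% and 6.25% of those tested, against 7.13% and 15.5% of all tested subfamilies. The DESeq2 Wald test called the same 3 lower and 0 MT subfamilies higher, where it called 6.03% of all tested subfamilies lower and 4.2% higher.

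MTC, whose LTR serves the oocyte promoter of Dicer1, had 340, 310 and 199 CPM in WT and 776, 211 and 391 CPM in Tet2 KO. Tet2 KO replicate 2 lay within the WT range and the other Tet2 KO libraries above it, and the log2 change was 0.54 ± 0.531 with an edgeR adjusted p of 0.647. MTC-int reached 64.0 CPM in WT replicate 2 and lay between 8.83 and 37.6 CPM elsewhere. MTD had 390, 563 and 943 CPM in WT and 646, 474 and 491 CPM in Tet2 KO, with a log2 change of −0.43 ± 0.408 and an edgeR adjusted p of 0.64. MTD-int had 68.6, 98.3 and 50.5 CPM in WT and 26.3, 62.7 and 30.05 CPM in Tet2 KO, with an edgeR adjusted p of 0.459.

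In the oldest group, MTE-int had 571, 303 and 306 CPM in WT and 48.4, 166 and 210 CPM in Tet2 KO. All Tet2 KO libraries were below all WT libraries, with a log2 change of −1.65 ± 0.605 and an edgeR adjusted p of 0.244. MTE2a, MTEa and MTEb, the LTR subfamilies other than MTE2b, lay within 46.1 to 195, 109 to 181 and 27.8 to 277 CPM, with WT and Tet2 KO overlapping in each and edgeR adjusted p of 0.755, 0.984 and 0.49. MTEa-int and MTEb-int were carried by single libraries. MTEa-int had 903 of its counts in WT replicate 3 and at most 33.8 in any other library, and MTEb-int had 286 in Tet2 KO replicate 2 and at most 66.9 in any other. The fitted log2 changes of −3.51 ± 1.74 and 2.38 ± 1.69 (edgeR adjusted p of 0.346 and 0.504) rest on those libraries. MTB_Mm-int, MTE2a-int and MTE2b-int had mean counts of 3.05, 3.88 and 8.27 per library and were not tested.

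The median log2 change of the 16 MT subfamilies was −0.23, beside 0.12 over all tested subfamilies, and 3 of them against 87 of the 547 had an unadjusted p under 0.05. The neighbouring groups of the same family did not show a called subfamily. Of ORR1, 25 subfamilies were tested and 0 called (edgeR, 3 with an unadjusted p under 0.05), with a median log2 change of 0.27, and of MLT 21 were tested and 0 called (1 with an unadjusted p under 0.05), with a median of 0.15. By the DESeq2 Wald test 1 ORR1 and 0 MLT subfamilies were called. ORR1 took 0.352%, 0.383% and 0.223% of counts in WT and 0.403%, 0.362% and 0.446% in Tet2 KO. MERVL, the related element with viral genes that is expressed at the 2-cell stage, took 2.06%, 2.22% and 1.84% in WT and 0.936%, 0.715% and 0.527% in Tet2 KO, and 1 of its 3 tested subfamilies (MERVL-int) was called, as lower. The differences between the changes of these groups were not tested.

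The chromosome 14 MTE2b element held 17022, 3763 and 4373 CPM in WT and 26041, 6306 and 5943 CPM in Tet2 KO. Replicate 1 was the highest library in both groups, and WT replicate 1 exceeded 2 of the 3 Tet2 KO libraries. The log2 change was 0.86 ± 0.764 with an edgeR adjusted p of 0.553 over 19030 tested elements, and it lay between −0.13 and 1.85 when 1 library was left out. The subfamily MTE2b as a whole followed this element, with a log2 change of 0.48 (adjusted p = 0.786 by edgeR), and without it 1.19 ± 0.846 (adjusted p = 0.502), at 163, 75.5 and 50.9 CPM in WT and 531, 123 and 77.0 CPM in Tet2 KO. Element and subfamily fits were scaled separately, so 0.86 and 0.48 are not on the same scale. As log2 ratios of mean CPM, the element had 0.61 and the whole subfamily 0.62. The element had a GC content of 59.5%. In the GENCODE annotation it lies within the lincRNA Gm15218, which runs on the opposite strand, and overlaps 0 of its exons. In RefSeq it is intergenic, with Gm8317 as the nearest gene at 45128 bases. None of the 6 neighbouring repeats within 1500 bases had counts. Runs of at least 20 C or G were present in 32 MT elements, of which 5 had counts, and the highest of these besides the chromosome 14 element held 9.98 counts over the 6 libraries.

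At single elements the depth limited what could be tested. Of 148946 MT elements, 71 passed the filter on low counts, 59 of them MTA_Mm, 2 MTA_Mm-int, 4 MTC, 4 MTD, 1 MTE2b and 1 MTEa-int. By edgeR 0 of the 71 were called and the smallest adjusted p was 0.0975, while 0.0473% of all 19030 tested elements were called higher and 0% lower. An unadjusted p under 0.05 was found for 23 of the 71 (32.4%, 22 of them lower in Tet2 KO), against 4000 of all tested elements (21.0%, 1508 of them lower). Of these 23, 13 were near-identical copies of about 1618 bases in a stretch of chromosome 2 described below, and 2 were other copies there. The rest were 7 of 34 other MTA elements and 1 of 10 MTC, MTD or MTE elements. The DESeq2 Wald test on the same counts called 19 lower (26.8%) and 0 higher, against 3.42% and 7.92% of all tested elements. Of the 19, 13 were copies of that stretch and 6 were other MTA elements. For 8 of the 71 the Wald test gave no adjusted p. For 24 of the 71 every Tet2 KO library was below every WT library, and for 0 above, against 19.7% and 11.6% of all tested elements. Of these 24, 16 were among the 27 tested copies of that stretch, where near-identical copies may share reads. The remaining 8 were among the other 44 (18.2%), close to the share over all tested elements. An element enters the test through the group in which it is high, so these counts do not speak for all MT elements.

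The 3 tested elements with the smallest p among those whose groups did not overlap were all MTA_Mm and all lower. The copy at chr2:175089992-175092141, antisense in an intron of Gm14393, had 81.1, 62.5 and 24.8 CPM in WT and 0.116, 0 and 0 CPM in Tet2 KO, with an edgeR adjusted p of 0.0975. A floor of 3 counts in each Tet2 KO library gives a mean of 1.73 CPM. The WT mean of 56.1 CPM was 32.4-fold that floor, a ratio that leaves out the spread of WT. The copy at chr11:77255146-77257037, in an intron of Ssh2 (a cofilin phosphatase gene) on the strand of the gene, had 12.7, 7.81 and 14.5 CPM in WT and 0.116, 0.0653 and 0 CPM in Tet2 KO (edgeR adjusted p = 0.101). Its WT mean was 6.73-fold the same floor. The copy at chr11:31343758-31345628, intergenic at 13813 bases from Stc2 (a secreted glycoprotein gene), had 27.6, 24.7 and 8.31 CPM in WT and 1.12, 0.653 and 0.915 CPM in Tet2 KO, with a log2 change of −3.36 ± 0.579 (edgeR adjusted p = 0.101). In each of the 3 the libraries of Tet2 KO held fewer than 3 counts. Their adjusted p stayed on the same side of the threshold by edgeR under the other scalings and filters, and the Wald test called all of them, at adjusted p of 1.03e-07, 0.000397 and 0.000848.

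At the MTA copies with the highest counts outside chromosome 2 the groups overlapped. The copy at chr4:147371066-147372947, in an intron of Zfp978, had 34.4, 362 and 47.3 CPM in WT and 2.84, 191 and 15.8 CPM in Tet2 KO. The copy at chr4:147630867-147632748, in an intron of Zfp979, had 22.9, 285 and 12.4 CPM in WT and 3.89, 113 and 6.52 CPM in Tet2 KO. Replicate 2 was the highest in both groups at both, and their edgeR adjusted p were 0.787 and 0.723. The copy at chr4:147032828-147034709, in an intron of Rex2, had 38.1, 117 and 126 CPM in WT and 2.06, 104 and 16.3 CPM in Tet2 KO, with an edgeR adjusted p of 0.684, and its log2 change of −0.90 ± 1.15 was −2.95 without Tet2 KO replicate 2. All of these host genes encode zinc finger proteins, and each copy lies on the strand of its gene. The intergenic copy at chr13:66445004-66446883 had 418 CPM in Tet2 KO replicate 3 and at most 23.8 CPM in any other library (edgeR adjusted p = 0.366).

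A 3.08 Mb stretch at the end of chromosome 2 (chr2:174910362-177986851) held 84 MTA copies, 0.63% of all MTA copies, and 25.1% to 34.9% of the MTA counts in WT. RefSeq lists 73 genes there, 30 of them protein-coding, in a cluster of zinc finger genes of which 7 carry Zfp names (Zfp965, Zfp966, Zfp967, Zfp968, Zfp970, Zfp972 and Zfp973). The stretch was picked after its values were seen. All 84 copies were assembled ones, 71 named MTA_Mm and 13 MTA_Mm-int, and 56 had counts. Together they had 2353, 1691 and 1409 CPM in WT and 693, 859 and 635 CPM in Tet2 KO. For 21 of the 84 copies every Tet2 KO library was below every WT library, and for 0 above, where the shares over all tested elements were 19.7% and 11.6%, and nothing is read from this count because the stretch was picked on its values.

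These copies fall into sets of near-identical sequence between which reads may be shared, so values are given for sets first. Sets were joined at 95% identity, also after the values were seen. The largest held 17 copies of about 1618 bases, 95.8% to 100% identical, with 1217, 562.4 and 1060 CPM in WT and 61.5, 66.9 and 1.2 CPM in Tet2 KO. Each Tet2 KO library was far below each WT library, with a log2 ratio of means of −4.45. Singly, 14 of its 17 copies had no overlap, which is no independent count because these copies may share reads (19.7% of all tested elements were lower without overlap). By edgeR 13 of them were tested and 0 called (all 13 with an unadjusted p under 0.05, against 21.0% of all tested elements, and 11 called lower by the Wald test, against 3.42%), with log2 changes between −4.92 and −2.99 and adjusted p between 0.103 and 0.222.

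A set of 9 copies of 1130 bases, 99.2% to 100% identical and lying among the same genes, showed no such gap. It had 370, 900 and 55.7 CPM in WT and 309, 713 and 185 CPM in Tet2 KO, with a log2 ratio of −0.14, and its 8 tested copies had log2 changes between −2.60 and 1.33. The 3 of these copies among the 10 MT elements with the highest mean counts, at chr2:175787914-175789043, chr2:176435650-176436779 and chr2:175287119-175288248, were all intergenic and overlapped between groups, with log2 changes of 1.33 ± 0.928, 1.09 ± 1.04 and 1.05 ± 0.989 (edgeR adjusted p of 0.448, 0.578 and 0.575). These values came down to 0.79, 0.54 and 0.495 without WT replicate 3 and to 0.57, 0.36 and 0.50 without Tet2 KO replicate 2, and went up to 1.70, 1.74 and 1.92 without WT replicate 1. A set of 7 copies of about 2148 bases, 96.0% to 100% identical, had 444, 154 and 98.0 CPM in WT and 0.697, 4.50 and 0.1 CPM in Tet2 KO, again without overlap. A set of 9 copies of 1889 bases had 0.545, 17.7 and 98.7 CPM in WT and 3.11, 0 and 1.70 CPM in Tet2 KO, where WT replicate 1 lay inside the range of Tet2 KO. Sets of 9 copies of about 1495 bases and 9 of about 682 bases had 0 counts in all libraries. The floor of 3 counts used above, which is not a hard limit, corresponds to 0.904 to 1.96 CPM per library. A set of 8 copies of about 1626 bases had 1 copy with counts. Among the 84 copies, 52 pairs were identical over their whole length, and 13 of those pairs joined a copy named MTA_Mm with one named MTA_Mm-int. The 1618-base and 2148-base sets held only copies named MTA_Mm.

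**Figure D1:**
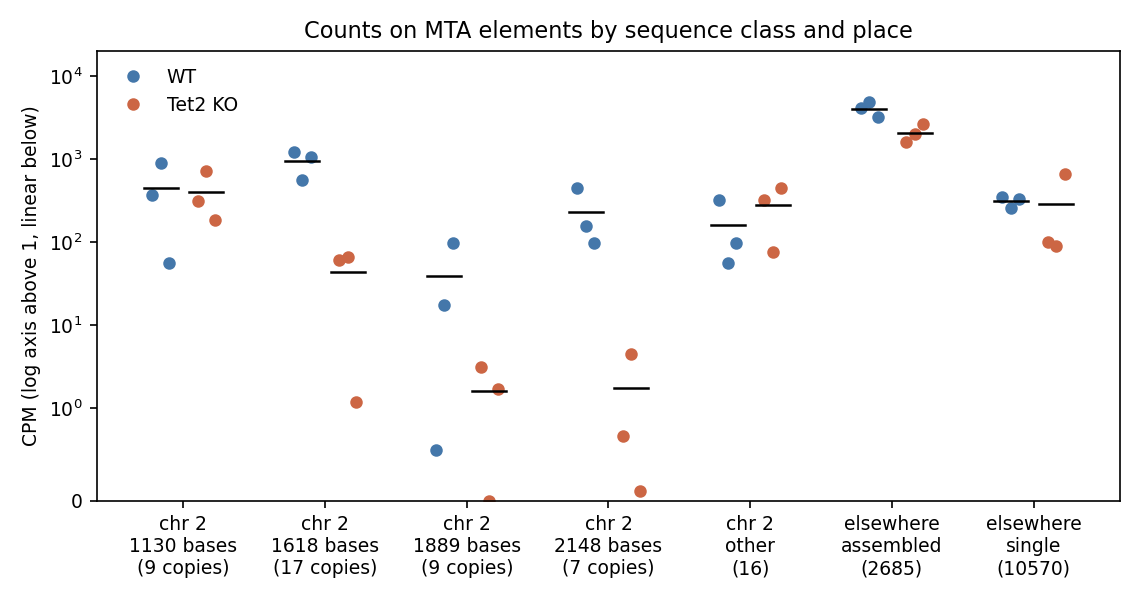
CPM per library (log axis above 1, linear below) on MTA copies, split into near-identical sets of distal chromosome 2 by length, the other copies there, and assembled and single copies elsewhere. Points are libraries (3 WT, 3 Tet2 KO), bars are group means and copy numbers are in brackets. WT and Tet2 KO are apart for the 1618-base and 2148-base sets and for assembled copies elsewhere, and overlap in the rest.

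The sets also differed in build and in place. Compared with the full copy in Ssh2, which begins and ends with an LTR, the chromosome 4, 11 and 13 copies named above kept both LTRs, with 94.5% to 99.5% identity over the first bases and 95.5% to 97.0% over the last. The 1618-base and 2150-base copies matched the LTR at their 3′ end (87.5% to 89.0% identity) but not at their 5′ end (53.0% to 54.0%), and the 1130-base copies matched at neither. On chromosome 2, 26 MTA copies lay in RefSeq exons on the same strand, 23 of them in 3′ UTRs. Of these 23, 1 also overlapped a 5′ UTR. They included 15 of the 17 copies of the 1618-base set, 4 of the 9 of the 1130-base set and 2 of the 7 of the 2148-base set.

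Among exonic copies of the 1618-base set, the one at chr2:177014009-177015626 in an exon of Gm14419 had 219, 38.2 and 174 CPM in WT and 9.66, 0 and 0 CPM in Tet2 KO (log2 change −4.92 ± 1.44, edgeR adjusted p = 0.129), and its log2 change was −7.37 without Tet2 KO replicate 1 and −5.35 to −4.43 with any other library left out. The one at chr2:175882470-175884087 in the 3′ UTR of Gm6710 had 50.6, 39.3 and 203 CPM in WT and 7.28, 2.02 and 0 CPM in Tet2 KO (log2 change −4.43 ± 1.21, edgeR adjusted p = 0.117), and its log2 change was between −5.63 without Tet2 KO replicate 1 and −3.28 without WT replicate 3. Both had the 3 WT libraries above the 3 Tet2 KO libraries. Exonic copies of the 1130-base set also had lower means in Tet2 KO, but with overlap between the groups. The copy in Zfp966 had 0.877, 94.6 and 3.11 CPM in WT and 0.773, 24.4 and 0.65 CPM in Tet2 KO, the copy in Zfp967 had 1.09, 150 and 6.22 CPM in WT and 2.85, 22.0 and 0.05 CPM in Tet2 KO, and the copy in Zfp968 had 0.705, 106 and 7.77 CPM in WT and 2.32, 11.8 and 0.15 CPM in Tet2 KO. The copy in Gm4724 (chr2:175690342-175691471) had 0.85, 163 and 6.92 CPM in WT and 3.12, 27.0 and 0.2 CPM in Tet2 KO. In each of the 4, replicate 2 was the highest library of both groups and the groups overlapped. These genes were named after their values were seen.

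Over the genome, MTA copies in exons had 1446, 1179 and 1085 CPM in WT and 212, 290 and 25.1 CPM in Tet2 KO, or 17.5% to 22.1% of MTA counts in WT and 0.639% to 9.91% in Tet2 KO. Exonic copies outside distal chromosome 2 had 176, 86.3 and 18.6 CPM in WT and 54.3, 87.5 and 22.4 CPM in Tet2 KO, with overlap. Intronic copies had 2713, 2732 and 1945 CPM in WT and 1020, 1021 and 1542 CPM in Tet2 KO, without overlap, while intergenic copies had 2581, 2821 and 1888 CPM in WT and 1140, 1616 and 2358 CPM in Tet2 KO, with overlap. Reads of an MTA copy within an exon cannot be told apart from reads of the host transcript in this table.

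Summed over MTA copies outside the chromosome 2 stretch, a split made after seeing the data and not tested, counts were also lower in Tet2 KO. Elsewhere MTA copies had 4386, 5042 and 3510 CPM in WT and 1679, 2068 and 3289 CPM in Tet2 KO, every Tet2 KO library being below every WT library, with a log2 ratio of −0.88. Assembled copies elsewhere had 4042, 4788 and 3176 CPM in WT and 1578, 1978 and 2622 CPM in Tet2 KO, and single copies had 345, 254 and 333 CPM in WT and 101, 90.3 and 667 CPM in Tet2 KO, where replicate 3 was above all WT libraries. Assembled copies held 93.2% to 96.2% of MTA counts in WT. With the chromosome 2 copies left out, a choice made after seeing the data, MTA_Mm had a log2 change of −1.11 ± 0.26 and was no longer called (edgeR adjusted p = 0.103).

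Counts on MT elements were uneven between libraries of a group. Of the 372 MT elements with at least 50 counts besides the chromosome 14 element, 140 (37.6%) had at least 90% of them in 1 library, against 14.3% of the 28869 such elements in the table, and 20.4% against 79.1% had counts in all 6 libraries. The share in 1 library was 28.3% of 276 MTA elements, 53.6% of 28 MTD elements and 75.0% of 48 MTE elements. Leading elements, picked here by their counts, included an intergenic MTD copy at chr12:23972254-23972633 with 775 counts in WT replicate 3 and an MTE2b copy in an intron of Gm4070 (chr7:105923567-105923871) with 457 counts in Tet2 KO replicate 1, both with 0 in the other 5 libraries. An MTC copy at chr4:89264568-89265151, 9322 bases from Cdkn2a, a cell cycle inhibitor gene, was spread more widely, with 143, 352 and 130 counts in WT and 77.3, 13.0 and 130 counts in Tet2 KO. The MTB copy with the highest counts, at chr2:177908107-177909775 in an intron of Gm14327 and Zfp972, had 97.7, 1.2 and 78.5 counts in WT and 0 in each Tet2 KO library, and lies within the same stretch of chromosome 2.

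MT elements at 25 genes were looked up, Dicer1 and genes of the 2-cell embryo such as the Zscan4, Tcstv, Usp17l and Tdpoz genes. All 25 were found in the annotation, and 14 had MT elements inside them or within 10 kb. Such elements had counts at 3 genes (Dicer1, Tcstv3 and Sp110), 41.5 counts in all. Of these, 37.5 counts were at Sp110. At Dicer1, 1 of 8 MT elements had counts, an MTC copy with 3 counts over the 6 libraries, too few for a comparison of WT and Tet2 KO.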

How the data were processed

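Immunoprecipitated caRNA libraries of 3 WT and 3 Tet2 KO mES cell samples were used, grouped by the labels. The authors trimmed reads with Trimmomatic (0.39) and aligned them with HISAT2 (2.1.0) to mm10 (versions per the submitters' processing notes), dropped duplicates (Picard) and counted per repeat copy with featureCounts on an assembled repeat annotation. The deposited values are estimated counts, most of them fractional, and neither the counting options behind the fractions nor a strand setting is given in the sources used here. They total 1532029 to 3318565 counts per library over the classes DNA, LINE, LTR and SINE. The table of K-562 cells was not used here.

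Counts were rounded and tested, KO against WT and two-sided, with edgeR (4.0.16, R 4.3.3) quasi-likelihood fits after filterByExpr and TMM scaling, over all subfamilies or all elements, with Benjamini–Hochberg adjustment and a call at an adjusted p under 0.05. Log2 changes use a prior count of 2. The standard error is the change divided by the square root of F. The DESeq2 Wald test (1.42.0, without spike-in factors) was an alternative, with other scalings, a filter of 10 counts, a replicate block and leaving out libraries. Scripts were tested on simulated data. Group overlap was judged on CPM. Intervals and floors cover counting error only. With 3 against 3 libraries an exact permutation test cannot go below 0.1, so shares were described without a test.

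Elements were described if among the 10 with the highest mean count, if called, or if among the 3 with the smallest p in each direction without overlap (there were 0 higher ones). Subfamilies with a mean of at least 50 counts were given in full. Members, lists and genes were chosen with earlier results of these data known. Genes came from the RefSeq annotation of GRCm38.p6 and GENCODE M21 (the authors used M19), and bedtools (2.31.1) and pysam (0.24.0) gave overlaps and sequences. For 323 MT elements no sequence was read.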

Additional observations from a re-analysis of the deposited data

How the results depend on the processing

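Depth limits single copies most, since 71 MT elements could be tested, and no input libraries were used. By edgeR 1 MT subfamily was called. The count was also 1 with DESeq2 size factors, with a filter of 10 counts and without the MTE2b element, 0 with library totals, 0 with the replicate block, 0 without the distal chromosome 2 copies, 3 by the DESeq2 Wald test, and 0 to 1 when 1 library was left out. For MT elements it was 0 by edgeR in all settings run, with 0 when 1 library was left out, and 19 by the Wald test. Over subfamilies, deviations of same-numbered libraries from their group means correlated at −0.0928, −0.035 and −0.0447, and over elements at −0.00242, −0.0139 and −0.0229. Replicate numbers were therefore not used as a pairing. The fit with the replicate block (MTA_Mm −1.30, adjusted p = 0.119 by edgeR) is given as a value only. These correlations cannot settle whether same-numbered libraries share a pattern at single elements. With the block, the MTE2b element had a log2 change of 0.87 ± 0.136 and an edgeR adjusted p of 0.248. Over all tested subfamilies 11 were called (2 higher, 9 lower), 7 with DESeq2 size factors (2 and 5), 5 with library totals (2 and 3), 56 by the Wald test (23 and 33), 0 with the block and 5 to 8 with a library left out. Over all elements 9 were called (all higher), 1 with a filter of 10 counts, 2158 by the Wald test (1507 higher), 0 with the block and 0 with a library left out. Library totals moved the median log2 change of all subfamilies by 0.17 and of all elements by −0.24.

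On the log2 scale the share of all MT moved from 0.11 to −0.65 without the 10 highest elements, that of MTD from −0.29 to −0.79 and that of MTE without its dominant element from −0.11 to −0.42 over elements with at least 10 counts. With 1 library left out, the share of all MT lay between −0.54 and 0.59, of MT without that element between −0.79 and −0.60, of MTA between −1.21 and −0.84, of MTB between −0.37 and 0.70 (main value 0.40), of MTC between 0.07 and 0.94, of MTD between −0.52 and 0.04 and of MTE between −0.23 and 0.09. No MT subfamily that turned sign was called. MTA_Mm-int had −0.036 with DESeq2 size factors and −0.035 by the Wald test, −0.061 with a filter of 10 counts and −0.29 without the chromosome 2 copies. MTEa had 0.15 with library totals and 0.0077 with the block. With 1 library left out, signs turned for MTA_Mm-int (−0.41 to 0.49), MTB (−0.82 to 0.57), MTC (−0.11 to 0.90), MTC-int (−1.15 to 0.61), MTD (−0.70 to 0.016), MTE2a (−0.84 to 0.24), MTE2b (−0.63 to 1.47), MTEa (−0.15 to 0.21), MTEa-int (−4.21 to 0.43) and MTEb-int (−1.95 to 3.303). They also turned for the MTE2b element (−0.13 to 1.85), the copies in Zfp978 (−3.60 to 1.04) and Zfp979 (−3.92 to 1.48) and the chromosome 13 copy (−3.21 to 4.92). The causes were not tested.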
